A study of Rattus norvegicus with 4 samples.

Results

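Livers of rats kept under inhalational anesthesia for 6 hours were compared with livers of rats anesthetized only until they lost consciousness, with both anesthetic agents pooled. The members were chosen by label, without use of any measured value. They are 2 livers after 6 h, 1 with sevoflurane and 1 with desflurane, and 2 control livers, 1 for each agent, so that the comparison takes in 4 of the 4 samples of the series. All 4 rats were male wild type Wistar rats, bought when 6 weeks old, and food and water were withdrawn from all of them before the experiment. They breathed 4.5% sevoflurane or 6% desflurane through a nose cone in 50% oxygen, so the controls received the agent as well, for less than 1 minute. Ribosomal RNA was depleted from total RNA of the left lateral lobe, and the libraries were sequenced as paired-end reads. Each agent has 1 liver per state, and the spread within a state therefore covers rat and agent together. All rats were killed at the same time of day, so the 6 h rats entered anesthesia earlier, and they did not feed while anesthetized. The time under the agent and the time without food cannot be told apart in this design.

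As background, the liver clears foreign compounds through cytochrome P450 enzymes, whose genes are switched on by the nuclear receptors CAR and PXR, and it needs heme and the electron donor Por to make these enzymes work. The same hepatocytes turn from storing fuel to releasing glucose and burning fatty acids as a meal wears off, under control of insulin, glucagon, glucocorticoids and PPARα. Growth hormone and cytokines act on liver cells through JAK kinases and STAT proteins, and interferons act through STAT and IRF factors on antiviral and antigen presentation genes in hepatocytes and in resident immune cells.

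The files gave 16992 annotated genes, of which 9685 had a TPM value (a transcript level normalized for gene length and library size) higher than 2 in at least 2 libraries and were tested. Depth was 4.47 to 5.40 Gb of aligned sequence per library, and median-of-ratios scaling, which sets the typical gene equal between libraries, changed the TPM values by factors of 0.970 to 1.06. All levels given here are scaled TPM values, and within each state sevoflurane comes first and desflurane second. Differences are means of log2(TPM + 1) over both 6 h livers minus the mean over both controls, with the standard error (SE) of the limma fit and n = 2 per state. The median absolute difference between the livers of 1 state was 0.14 for the controls and 0.19 for the 6 h livers. Hepatocyte markers (*Alb*, *Ttr*, *Tf* and 5 others) were all detected and summed to between 128100 and 137900. The sevoflurane control stood apart in pancreatic acinar markers, which summed to 43.3 there and to 2.28, 0.609 and 3.76 in the desflurane control and the 6 h livers, and 9 of these 10 genes did not pass the filter. Neutrophil markers summed to between 1.23 and 4.30 in each library, and none of the 6 passed the filter. Of the cholangiocyte markers 1, *Epcam*, was tested, and it overlapped.

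Both 6 h livers were above both controls for 2187 genes (22.6% of the tested genes) and below both for 2176 genes (22.5%), and the states overlapped for the other 5322 genes. With the TPM values as deposited, these counts were 3265 and 1282, so that 71.8% instead of 50.1% of the separated genes were higher. The median difference of all tested genes was 0.00 after scaling and 0.08 as deposited. A separated difference of at least 1 on the log2 scale, which is 2-fold, was found for 75 genes in the higher direction (0.774%) and 76 genes in the lower direction (0.785%). For 38 higher and 32 lower genes, every 6 h TPM value differed at least 2-fold from every control value. An exact two-sided permutation test of 2 livers against 2 cannot give a p below 0.333, so separation is a description without a p-value. In the limma test across all genes, 5 genes rose (0.0516%) and 1 gene fell (0.0103%) at an adjusted p-value (Benjamini-Hochberg) below 0.05. At an adjusted p below 0.1 these numbers were 16 and 10, and at an unadjusted p below 0.05 they were 585 and 595. The p-values rest on the spread between these livers, which limma moderates for each gene with the spread of all tested genes. The number of genes called changed when 1 library was left out.

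**Figure D1:**
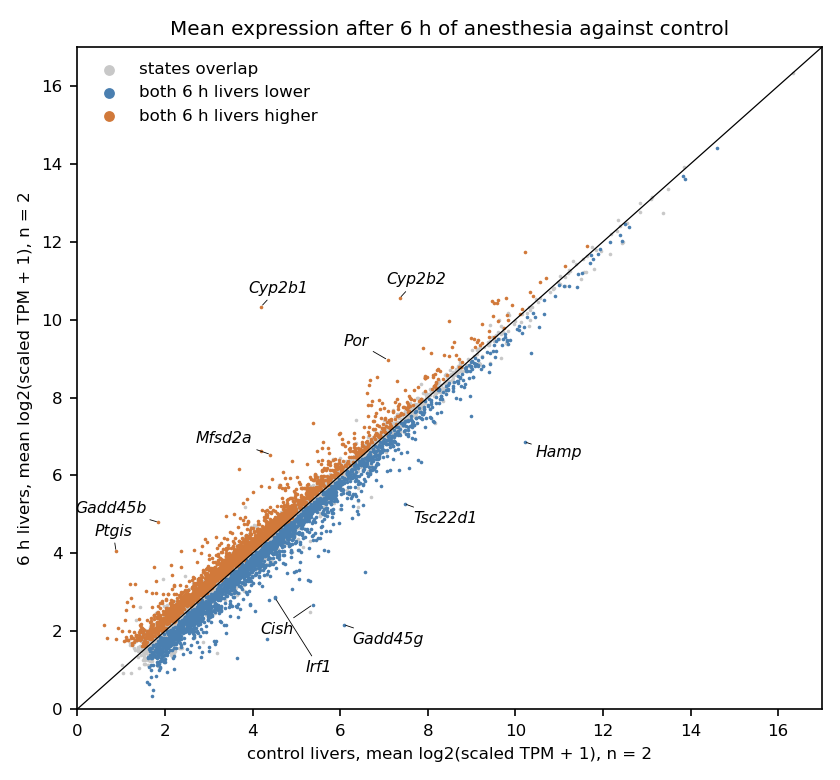
Mean log2(scaled TPM + 1) of the 2 control livers (x axis) and the 2 livers after 6 h (y axis) for the 9685 tested genes, with 1 point per gene, the line of equality, and color by separation of the states. *Cyp2b1* lies farthest above the line (difference 6.14) and *Gadd45g* farthest below it (-3.91).

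The largest difference was that of *Cyp2b1*, a phenobarbital-inducible cytochrome P450 and a standard readout of CAR activity. Its level was 18.2 and 16.5 in the controls and 1623 and 1027 in the 6 h livers, a 70.4-fold ratio of the geometric means of TPM + 1 (difference 6.14 ± 0.23 SE, limma adjusted p = 0.00489). *Cyp2b2*, the close paralog, was at 157 and 169.9 in the controls and at 1882 and 1197 in the 6 h livers (3.19 ± 0.23, adjusted p = 0.0462). Both genes rose in both 6 h livers with a wide gap to the controls, and the smallest step between states was 5.74 for *Cyp2b1* and 2.81 for *Cyp2b2* on the log2 scale. Reads of this pair may have been divided between the genes, so that each single value is uncertain. The summed level of the pair was 175 and 186 in the controls and 3506 and 2224 after 6 h, a difference of 3.94. The files (rn6 build) place *Cyp2b1* at chr7:99158102-99181774 and *Cyp2b2* at chr1:83103925-83119578, both on the plus strand, whereas RefSeq on the GRCr8 build places both on chromosome 1.

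How alike the paralogs are can be seen in their promoters. In RefSeq (GRCr8), 225 of 233 upstream bases (96.6%) were identical in an ungapped alignment of the promoters at a shift of 17 bases. A stretch of each is shown because these are the most strongly raised genes of the comparison, with capitals at the bases that differ. The first lies at chr1:90646019-90646078 and the second at chr1:90722164-90722223, both on the plus strand.
Cyp2b1: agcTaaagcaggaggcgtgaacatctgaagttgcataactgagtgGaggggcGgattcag
Cyp2b2: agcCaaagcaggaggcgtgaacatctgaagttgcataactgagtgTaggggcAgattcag

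Of the 34 genes listed as targets of CAR and PXR, 31 were tested. Both 6 h livers were above both controls for 17 of these genes (54.8%, against 22.6% of all tested genes) and below both for 5 genes (16.1%, against 22.5%). The median difference was 0.47 (0.00 for all tested genes), and 3 genes passed the limma test. *Cyp2b1*, *Cyp2b2* and *Gadd45b* are those 3 genes. *Por*, the reductase that passes electrons to all microsomal cytochrome P450 enzymes, was at 147 and 123 in the controls and 638 and 391 after 6 h (1.89 ± 0.25, adjusted p = 0.105). *Alas1*, the rate-limiting enzyme of hepatic heme synthesis, was at 100.5 and 103 in the controls and 430.4 and 287 after 6 h (1.78 ± 0.21, adjusted p = 0.0970). The values of both genes lay far from the controls in both 6 h livers, although neither passed the threshold of 0.05. The transporter gene *Abcb1a* was at 13.8 and 10.4 in the controls and at 31.4 and 27.0 after 6 h (1.21 ± 0.17, adjusted p = 0.11), and *Ces2c*, a carboxylesterase gene, was at 12.1 and 9.92 in the controls and at 38.7 and 25.2 after 6 h (1.43 ± 0.23, adjusted p = 0.13).

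Other genes of this list differed less clearly. *Cyp3a23/3a1*, the classical PXR target, was at 461 and 273 in the controls and at 1826 and 537 after 6 h (1.48 ± 0.59, adjusted p = 0.41), so that the sevoflurane liver carried most of the difference. *Cyp3a2*, with levels of 2660 and 1614 in the controls and 2423 and 2045 after 6 h, overlapped between the states, and the rows of these *Cyp3a* genes overlap in the annotation, so that their reads may be shared. The bilirubin conjugating enzyme *Ugt1a1* was at 354 and 305 in the controls and at 659 and 449 after 6 h. The canalicular transporter *Abcc2* was lower in both 6 h livers, at 315 and 338 against 484 and 442 (-0.50 ± 0.13, adjusted p = 0.26), and it was the lowest difference of the list. *Gsta2* and *Gsta5*, which had nearly equal values in each library (590 and 594 in the sevoflurane control), had a difference of -0.46 each, and reads of these glutathione transferases may be shared.

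The receptors themselves differed from each other. *Nr1i2*, which encodes PXR, was at 69.3 and 55.9 in the controls and at 121 and 144 after 6 h (1.07 ± 0.16, adjusted p = 0.12), whereas *Nr1i3*, which encodes CAR, was at 54.2 and 38.4 in the controls and at 22.6 and 39.7 after 6 h and overlapped between the states. Of the 21 nuclear receptor and coactivator genes tested, 6 were higher in both 6 h livers (28.6%, against 22.6% of all tested genes). Another 2 were lower (9.52%, against 22.5%), and the median was -0.05. *Pparg* was the lowest of these genes, at 6.47 and 6.12 in the controls and 3.09 and 2.78 after 6 h (-0.89 ± 0.15, adjusted p = 0.15). Of the 12 genes of heme synthesis and breakdown, 4 were higher and 4 lower (33.3% each), with a median of -0.02. Apart from *Alas1*, these genes differed little, between -0.33 for *Alad* and 0.35 for *Hmox1*. The 26 other cytochrome P450 genes tested had a median difference of 0.01, and 5 were higher and 5 lower (19.2% each). *Cyp2e1*, which oxidizes volatile anesthetics, was at 3439 and 2096 in the controls and at 2442 and 3107 after 6 h. Its values crossed between the agents, whereas *Cyp17a1*, a steroid hydroxylase, was higher in both 6 h livers, at 73.4 and 49.7 against 25.1 and 26.6 (1.20 ± 0.20, adjusted p = 0.15).

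The other 4 genes that passed the limma test are not drug-metabolizing enzymes. *Mfsd2a*, a transporter of lysophosphatidylcholine, was at 18.5 and 22.1 in the controls and at 88.4 and 95.3 after 6 h (2.13 ± 0.14, adjusted p = 0.0425). *Gadd45b*, a stress sensor and growth arrest gene, was at 3.37 and 1.99 in the controls and at 24.7 and 29.1 after 6 h (2.94 ± 0.22, adjusted p = 0.0462). The row of *Gadd45b* overlaps *Olr1059* on the same strand. *Ptp4a1*, a tyrosine phosphatase, was at 30.6 and 27.4 in the controls and at 81.4 and 81.7 after 6 h (1.46 ± 0.12, adjusted p = 0.0495). These 3 genes rose to nearly the same level with both agents. The test favors such genes, since its spread within a state includes the difference between the agents. *Tsc22d1*, a leucine zipper transcriptional regulator, was the gene that fell, from 198 and 157 in the controls to 33.5 and 42.2 after 6 h (-2.20 ± 0.18, adjusted p = 0.0495). These calls depended on the processing, since of the alternative settings tried *Mfsd2a* passed in 10 of 14, *Gadd45b* in 5 of 13, *Ptp4a1* in 4 of 14 and *Tsc22d1* in 3 of 14. *Cyp2b2* passed in 6 of 14 and *Cyp2b1* in 13 of 14. With the agent as a block in the limma model, only *Cyp2b1* passed.

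Of the *Gadd45* genes, *Gadd45b* rose, whereas *Gadd45g* had the lowest difference of all separated genes. *Gadd45g* was at 44.2 and 100.6 in the controls and at 5.14 and 2.29 after 6 h (-3.91 ± 0.46, adjusted p = 0.0970). *Gadd45a* was at 8.50 and 22.8 in the controls and at 14.5 and 12.2 after 6 h and overlapped. All 3 genes are linked to growth arrest and DNA damage responses. Among the 21 tested genes of growth arrest and apoptosis, 3 were higher in both 6 h livers (14.3%, against 22.6% of all tested genes). Another 5 were lower (23.8%, against 22.5%), and the median was -0.09. *Bmf*, a proapoptotic BH3-only protein gene, was at 35.7 and 42.1 in the controls and at 6.07 and 12.7 after 6 h (-2.01 ± 0.32, adjusted p = 0.13), and the kinase gene *Plk3* was at 2.29 and 2.24 in the controls and at 6.01 and 8.01 after 6 h (1.28 ± 0.19, adjusted p = 0.11).

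**Figure D2:**
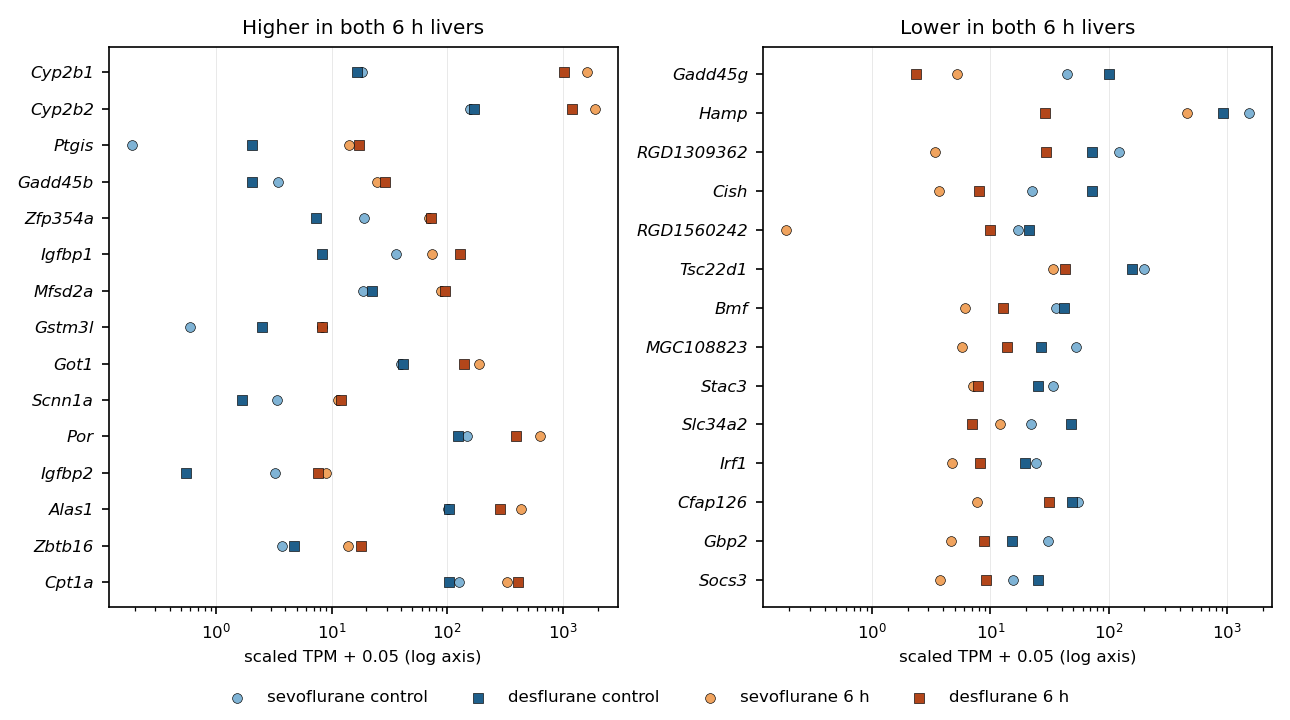
Scaled TPM values (plus 0.05, on a log axis) in each of the 4 livers for the 15 genes with the largest and 14 of the 15 genes with the smallest mean difference among the separated genes, with circles for sevoflurane and squares for desflurane. In every row the 2 livers after 6 h lie on 1 side of the 2 controls, and rows such as *Hamp* and *RGD1560242* show a wide spread between the agents after 6 h.

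Other genes among the 15 largest differences had known metabolic roles. *Ptgis*, the prostacyclin synthase gene, was near the detection limit in the controls at 0.137 and 2.0 and reached 14.2 and 17.1 after 6 h (3.16 ± 0.45, adjusted p = 0.11). *Got1*, the cytosolic aspartate aminotransferase, was at 39.7 and 41.6 in the controls and at 188 and 139 after 6 h (1.97 ± 0.17, adjusted p = 0.0640). *Igfbp1*, a secreted binding protein of insulin-like growth factors that insulin represses, was at 35.9 and 8.18 in the controls and at 74.3 and 128 after 6 h (2.42 ± 0.66, adjusted p = 0.29). The 6 h livers were above the controls in each case, but the controls of *Igfbp1* differed as well (-2.01 on the log2 scale, desflurane minus sevoflurane). *Igfbp2*, at 3.20 and 0.50 in the controls and 8.89 and 7.58 after 6 h, had a similar spread between its controls. *Zfp354a*, a zinc finger repressor gene, was at 19.0 and 7.28 in the controls and at 70.1 and 72.0 after 6 h (2.49 ± 0.40, adjusted p = 0.13), and *Zbtb16*, a zinc finger gene induced by glucocorticoids, was at 3.67 and 4.65 in the controls and at 13.7 and 18.1 after 6 h (1.71 ± 0.19, adjusted p = 0.0956). *Scnn1a* and *Gstm3l* were also among the 15, with 6 h levels of 11.2 and 12.0 for *Scnn1a* and of 8.22 and 8.23 for *Gstm3l*. *Scnn1a*, a subunit of the epithelial sodium channel, was at 3.32 and 1.62 in the controls.

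Among the lowest differences, *Stac3* was at 33.6 and 25.1 in the controls and at 7.05 and 7.82 after 6 h (-1.83 ± 0.17, adjusted p = 0.0718). *Slc34a2*, a sodium phosphate cotransporter gene, was at 21.9 and 47.7 in the controls and at 12.1 and 6.96 after 6 h (-1.71 ± 0.41, adjusted p = 0.24). *Cfap126* was at 54.9 and 48.6 in the controls and at 7.61 and 31.0 after 6 h (-1.67 ± 0.58, adjusted p = 0.38). *Stac3* reached similar levels with both agents, whereas *Cfap126* was much lower with sevoflurane. *Nrep* and *Mbl2*, a complement activating lectin, had smaller differences and adjusted p-values below 0.1. *Nrep* was at 218 and 237 in the controls and at 72.2 and 88.5 after 6 h (-1.5, adjusted p = 0.0718), and *Mbl2* was at 495 and 527 in the controls and at 206 and 163 after 6 h (-1.47, adjusted p = 0.0866). Both 6 h livers were well below both controls for these 2 genes.

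Among the 75 higher genes of at least 1 log2, the difference from the own control was larger with desflurane for 45 genes and larger with sevoflurane for 30. Among the 76 lower genes, it was larger with sevoflurane for 49 and with desflurane for 27. In 39 of the higher and 30 of the lower genes the difference from the own control was at least 1 log2 with each agent.

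Hepcidin (*Hamp*), the liver hormone that limits iron release into blood, was at 1522 and 920.3 in the controls and at 455 and 28.6 after 6 h (-3.35 ± 1.22, adjusted p = 0.38). Both 6 h livers were lower, but they were far apart (-3.95 on the log2 scale, desflurane minus sevoflurane). The other iron and acute phase genes differed little. *Crp* was at 6625 and 8129 in the controls and at 7883 and 8324 after 6 h, and the complement gene *C3* was at 5836 and 6602 in the controls and at 4998 and 5599 after 6 h. The 29 tested genes had a median of -0.01, with 7 higher (24.1%, against 22.6% of all tested genes) and 8 lower (27.6%, against 22.5%). *Il6r*, the receptor for interleukin 6, was the highest of this group, at 59.2 and 45.4 in the controls and 64.6 and 94.0 after 6 h (0.58 ± 0.22, adjusted p = 0.40).

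*Cish* and *Socs3* are feedback inhibitors that STAT proteins induce downstream of growth hormone and cytokine receptors. *Cish* was at 22.4 and 72.1 in the controls and at 3.61 and 7.91 after 6 h (-2.69 ± 0.58, adjusted p = 0.20). *Socs3* was at 15.5 and 25.0 in the controls and at 3.72 and 9.20 after 6 h (-1.58 ± 0.41, adjusted p = 0.26). In both genes the higher 6 h value was less than the lower control value. *Socs2* was at 39.7 and 99.3 in the controls and at 20.2 and 57.6 after 6 h. Its states overlapped, although each 6 h liver was below the control of its own agent. Among the 21 tested genes of this group, 9 were lower (42.9%, against 22.5% of all tested genes) and 4 higher (19%, against 22.6%). The median was -0.34, and it was -0.21 without the desflurane control and -0.18 without the sevoflurane liver after 6 h. *Igfals*, which carries circulating IGF-1, was lower in both 6 h livers (243 and 321 in the controls, 164 and 163 after 6 h, -0.77 ± 0.16, adjusted p = 0.20), and *Lepr*, the leptin receptor, whose row overlaps *Leprot* on the same strand, was higher (5.90 and 6.74 in the controls, 9.57 and 12.4 after 6 h, 0.70 ± 0.17, adjusted p = 0.24). *Mup5*, a major urinary protein gene whose row overlaps another gene on the same strand, was the most abundant member and overlapped between the states, at 4789 and 1945 in the controls and 3303 and 1698 after 6 h. *Cyp2c13* was at 2662 and 2141 in the controls and 2037 and 1708 after 6 h.

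Promoter stretches of 3 of these lower genes are shown because they hold the letters of a STAT site, TTCNNNGAA, a palindrome that reads the same on both strands. RefSeq promoters (GRCr8, 250 bases before to 50 bases after each start) were matched by symbol, and 8.87% of all 33469 promoters held this motif. Of the 60 promoters matched for the 76 lower genes of at least 1 log2, 16.7% held it, and of the 54 matched for the 75 higher genes, 5.56%. The lower genes include 15 members of the interferon response list described below, of whose matched promoters 34.2% (13 of 38) held it. Among the promoters of the STAT5 and cytokine feedback group it was present in 1 of 18. Capitals mark the motif. The *Cish* stretch (chr8:116850719-116850868, plus strand) holds it 4 times, starting 241, 230, 136 and 119 bases before the start. The *Irf1* stretch (chr10:38417755-38417854, plus strand) and the *Hamp* stretch (chr1:95300332-95300431, minus strand) hold it once each, 142 and 117 bases before the start.
Cish: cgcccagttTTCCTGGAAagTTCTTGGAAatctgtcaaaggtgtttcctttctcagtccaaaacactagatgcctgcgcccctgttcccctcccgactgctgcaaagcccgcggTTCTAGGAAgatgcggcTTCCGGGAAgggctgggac
Irf1: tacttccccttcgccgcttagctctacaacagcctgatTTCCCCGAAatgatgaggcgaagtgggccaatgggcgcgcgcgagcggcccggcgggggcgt
Hamp: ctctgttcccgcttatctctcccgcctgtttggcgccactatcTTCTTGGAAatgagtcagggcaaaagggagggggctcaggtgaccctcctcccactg
The *Socs3* promoter held no match in this window. A match is a description of the letters only.

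The interferon response genes stood together on the lower side. Of 60 listed genes, 48 were tested, 39 were lower in both 6 h livers (81.2%, against 22.5% of all tested genes), 9 overlapped and 0 were higher, and the median difference was -0.78. The difference from the own control had a median of -0.85 with sevoflurane and -0.46 with desflurane. The controls differed as well (median -0.32, desflurane minus sevoflurane). Summed levels of the listed genes were 1988 and 1674 in the controls and 1224 and 1238 after 6 h. No gene of this list passed the limma test at an adjusted p below 0.05, and 2 (*Mx2* and *Parp14*) had an adjusted p below 0.1. At an unadjusted p below 0.05 there were 30 lower and 0 higher genes, against 595 and 585 of all 9685 tested genes. With the TPM values as deposited, 33 were lower and 2 higher, with a median of -0.70 (1282 lower and 3265 higher among all tested genes). Leaving out 1 library at a time gave medians between -0.80 and -0.52, and the weakest was without the sevoflurane control. *Irf1*, the transcription factor that heads the response to interferon-γ, was at 24.3 and 19.7 in the controls and at 4.68 and 8.15 after 6 h (-1.67 ± 0.25, adjusted p = 0.12). *Mx2*, an antiviral GTPase, was at 29.8 and 30.2 in the controls and at 12.3 and 8.83 after 6 h (-1.44 ± 0.17, adjusted p = 0.0970). Both genes had similar levels in the controls, and neither 6 h liver came near them.

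Guanylate binding proteins and immunity related GTPases attack the vacuoles of intracellular microbes, and 3 of their genes are given here. *Gbp2* was at 30.8 and 15.2 in the controls and at 4.57 and 8.71 after 6 h (-1.63 ± 0.40, adjusted p = 0.24). *Irgm* was at 57.7 and 41.5 in the controls and at 13.2 and 19.6 after 6 h (-1.55 ± 0.24, adjusted p = 0.13). *Igtp* was at 109.8 and 53.2 in the controls and at 30.6 and 27.1 after 6 h (-1.38 ± 0.33, adjusted p = 0.24). In these 3 genes the controls differed from each other as well, with the sevoflurane control higher. *RGD1309362* and *MGC108823*, which lie within 100 kb of each other on chromosome 18 in the files and are no members of the list, were at 122 and 72.0 and at 52.6 and 26.7 in the controls, and at 3.37 and 29.5 and at 5.69 and 13.8 after 6 h. RefSeq gives *Ifgga1* as a synonym of the first. The poly(ADP-ribose) polymerase gene *Parp14* was at 47.6 and 40.3 in the controls and at 19.2 and 20.5 after 6 h (-1.10 ± 0.13, adjusted p = 0.0970), and *Ifi27*, the most abundant member, differed little (456 and 429.8 in the controls, 416 and 366 after 6 h).

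The interferon-stimulated response element core, GAAANNGAAA, was searched on both strands. It was found in 3.92% of all promoters and in 25 of the 38 promoters matched for the tested interferon response genes (65.8%), a list made of genes known for this response. Of the promoters of the lower genes of at least 1 log2, 20% held it, and of those of the higher genes 1.85%. Since 15 of the 76 lower genes are members of the interferon list, this share is not a separate observation. Both motifs were present in 172 promoters (0.514% of all), and the spacing described here was picked among those possible. In 4 genes of the whole table, 3 of them tested, this core started 11 bases after the start of a STAT site. The 3 tested genes, *Igtp*, *Parp14* and *Irgm*, were all lower in both 6 h livers, and their stretches are shown for this shared arrangement, with both motifs in capitals. Because the spacing was picked, the direction of these genes is no test of it. They lie at chr10:42874907-42874986 (plus strand), chr11:78408021-78408100 (plus strand) and chr10:33742579-33742658 (minus strand).
Igtp: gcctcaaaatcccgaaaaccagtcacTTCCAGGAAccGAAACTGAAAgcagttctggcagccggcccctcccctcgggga
Parp14: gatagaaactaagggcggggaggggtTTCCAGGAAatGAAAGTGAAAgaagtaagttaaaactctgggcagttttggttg
Irgm: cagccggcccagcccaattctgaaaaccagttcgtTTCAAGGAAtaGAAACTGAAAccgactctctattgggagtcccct

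**Figure D3:**
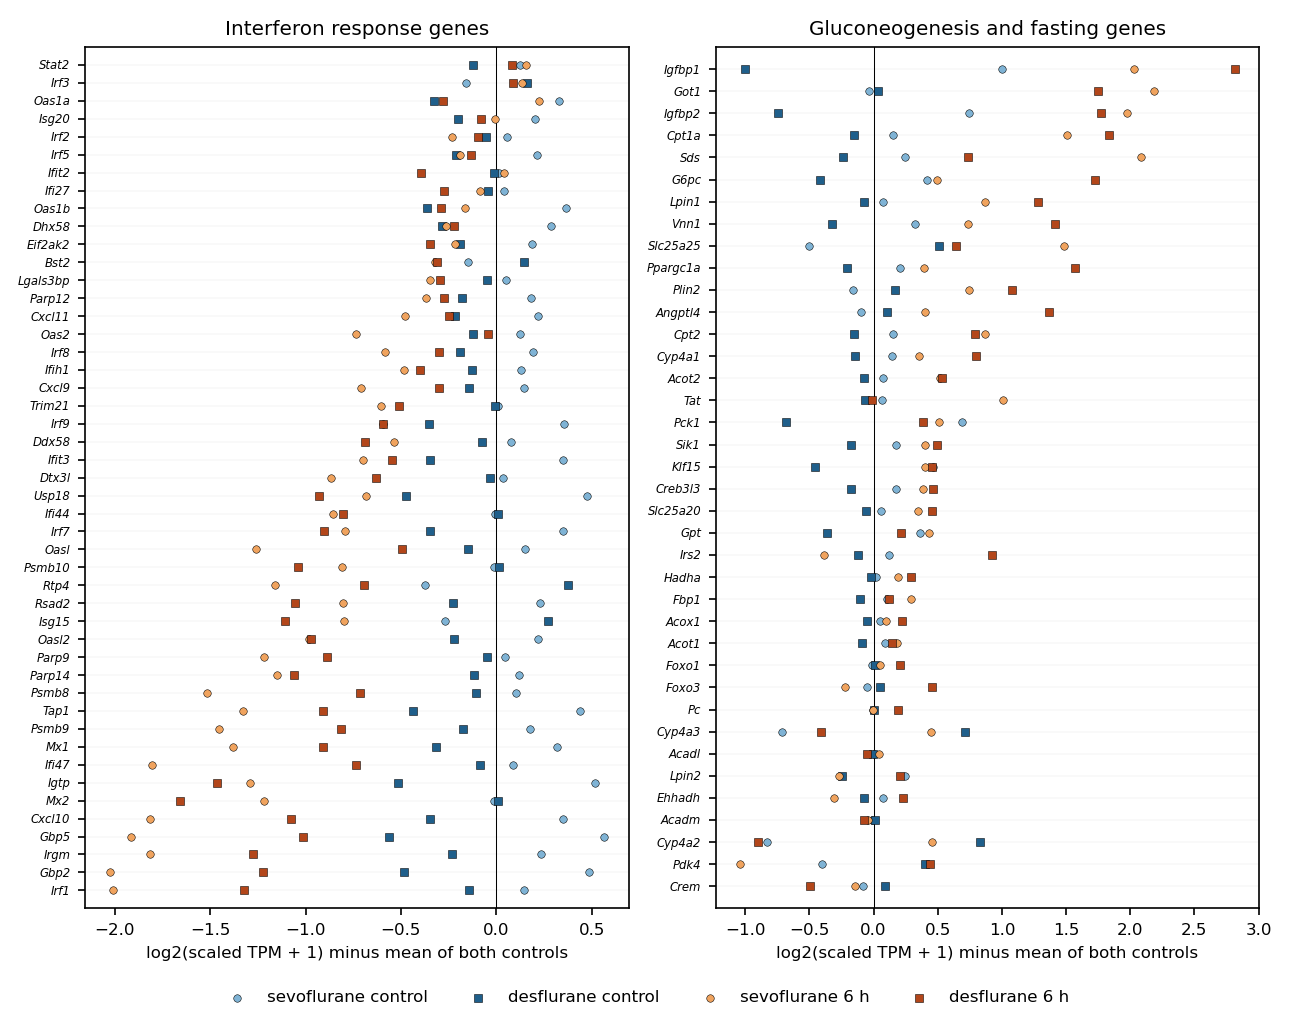
Log2(scaled TPM + 1) of each liver minus the mean of both controls for 47 of the 48 tested interferon response genes (left) and 38 of the 39 tested genes of gluconeogenesis and fasting (right), with 1 row per gene, circles for sevoflurane and squares for desflurane. On the left 38 genes have both 6 h livers below both controls, and on the right 23 genes have both 6 h livers above them.

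Antigen presentation genes were lower in part. Of the 21 tested genes of MHC class I loading and class II, 13 were lower in both 6 h livers (61.9%, against 22.5% of all tested genes) and 0 higher. The median was -0.49, and it was -0.27 without the sevoflurane and -0.74 without the desflurane liver after 6 h. With the values as deposited, 8 were lower, where 1282 of all tested genes were lower and 3265 higher. No gene of this list passed the limma test. At an unadjusted p below 0.05 there were 8 lower and 0 higher genes, against 595 and 585 of all 9685 tested genes. The difference from the own control had a median of -0.93 with sevoflurane and of -0.01 with desflurane. The controls differed as well (median -0.36, desflurane minus sevoflurane). The immunoproteasome subunits *Psmb8* and *Psmb9* and the peptide transporter *Tap1*, which lie side by side on chromosome 20, were lower in both 6 h livers. Not all of them are members of this list. *Psmb8* was at 54.5 and 47.0 in the controls and at 17.1 and 30.4 after 6 h (-1.12 ± 0.27, adjusted p = 0.24), and *Tap1* was at 58.4 and 31.3 in the controls and at 16.5 and 22.4 after 6 h (-1.12 ± 0.31, adjusted p = 0.31). Of the class II genes, *RT1-Da*, *RT1-Db1*, *RT1-Ba*, *RT1-Bb* and *Cd74* overlapped. *Cd74*, the invariant chain gene, was at 373 and 220 in the controls and at 110 and 237 after 6 h. *B2m* was at 1005 and 792 in the controls and at 633 and 762 after 6 h. *RT1-N2* had the lowest difference (8.17 and 7.47 in the controls, 1.93 and 2.74 after 6 h, -1.41), but its row overlaps that of *RT1-N1* (-1.43), and their reads may be shared.

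Of 51 listed chemokine, interleukin and receptor genes, 32 were tested, and 18 were lower (56.2%, against 22.5% of all tested genes) and 3 higher in both 6 h livers, with a median of -0.34 that was -0.17 without the sevoflurane liver after 6 h. No gene of this list passed the limma test, and 10 lower and 3 higher genes had an unadjusted p below 0.05 (595 and 585 of all 9685 tested genes). *Cxcl10*, a T cell attractant induced by interferons, was at 12.4 and 7.30 in the controls and at 2.005 and 4.003 after 6 h (-1.45 ± 0.34, adjusted p = 0.23). Its row overlaps *Art3* on the opposite strand, and whether strand was used in the quantification is not given in the sources used here. *Ccl6*, the macrophage chemokine, was at 395 and 250.0 in the controls and at 158 and 248 after 6 h (-0.66 ± 0.30, adjusted p = 0.45), so that its states were barely separated. *Il33*, an alarmin of stromal and endothelial cells, was at 80.2 and 51.3 in the controls and at 28.4 and 47.5 after 6 h (-0.79 ± 0.31, adjusted p = 0.40). For *Ccl6* and *Il33* the desflurane liver after 6 h was close to its control. *Il6r*, *Il1r1* and *Il1rn* were the 3 genes that were higher, and *Il1rn*, the receptor antagonist of interleukin 1, was at 14.1 and 11.9 in the controls and at 19.9 and 18.3 after 6 h.

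Some markers of immune cells were lower as well. The marker sets are small, and of all tested genes 22.5% were lower and 22.6% higher in both 6 h livers. Of 10 tested Kupffer cell markers, 4 were lower in both 6 h livers (40%) and 0 higher. Their summed level was 812 and 647 in the controls and 475 and 699.9 after 6 h. With desflurane the median difference of these markers from the own control was 0.10, and with sevoflurane it was -0.67. *Clec4f*, which defines these cells, was at 124 and 97.6 in the controls and at 76.1 and 116 after 6 h and overlapped, whereas *Cd5l* was lower, at 92.7 and 82.5 against 33.2 and 68.3. Of 10 T and NK cell markers, 3 were tested and 2 of these were lower. The summed levels were 33.9 and 32.0 in the controls and 22.7 and 30.7 after 6 h, *Cd3e*, *Cd3d* and *Cd3g* were below 1 in all livers, and *Cd3d* and *Cd3g* were listed at 0 in the desflurane control. Of 4 B cell markers in the files, 2 were tested and both were lower, with summed levels of 10.2 and 8.29 in the controls and 5.73 and 7.33 after 6 h. Erythroid markers summed to 52.6 and 35.8 in the controls and to 33.1 and 18.7 after 6 h, and 2 of 3 were lower. In bulk tissue, fewer cells of a type and less RNA per cell cannot be told apart, and the part of these markers in the immune gene groups was not tested. Of 5 endothelial markers, *Lyve1* was higher and *Kdr* and *Cdh5* were lower, and the summed levels overlapped (185 and 181 in the controls, 167 and 186 after 6 h). Of 6 stellate cell markers, *Lrat* (-0.57) and *Pdgfrb* (-0.59) were lower and 0 higher, and the summed levels overlapped (89.8 and 104 in the controls, 76.0 and 92.1 after 6 h).

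Many genes of gluconeogenesis and fasting were higher. Of the 39 tested genes, 24 were higher in both 6 h livers (61.5%, against 22.6% of all tested genes) and 2 were lower, and the median was 0.42. No gene of this list passed the limma test. At an unadjusted p below 0.05 there were 16 higher and 0 lower genes, against 585 and 595 of all 9685 tested genes. *Cpt1a*, which admits long chain fatty acids into mitochondria, was at 127 and 103 in the controls and at 327 and 410 after 6 h (1.67 ± 0.17, adjusted p = 0.0866). *Cpt2*, its partner on the inner membrane, was at 58.9 and 47.7 in the controls and at 97.4 and 92.3 after 6 h (0.83 ± 0.14, adjusted p = 0.15). These fatty acid oxidation genes were higher with both agents. *G6pc*, the last step of glucose release, was at 210 and 118 in the controls and at 222 and 522 after 6 h (1.11 ± 0.46, adjusted p = 0.42), and *Ppargc1a*, a coactivator of fasting genes, was at 4.33 and 2.99 in the controls and at 5.06 and 12.7 after 6 h. For both genes the desflurane liver held most of the difference. *Pck1*, the gatekeeper of gluconeogenesis, overlapped, at 1104 and 426 in the controls and 975 and 896 after 6 h, and *Crem* had the lowest difference of the list (-0.32).

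Genes that feeding and insulin induce were mixed, with 14 of 31 lower in both 6 h livers (45.2%, against 22.5% of all tested genes) and 5 higher (16.1%, against 22.6%). The median was -0.42, and it was -0.16 without the desflurane control and -0.28 without the desflurane liver after 6 h. *Srebf1*, the lipogenic transcription factor that insulin induces, was at 139 and 186 in the controls and at 69.1 and 70.0 after 6 h (-1.2 ± 0.17, adjusted p = 0.10). *Fads2*, a desaturase of polyunsaturated fatty acids, was at 1313 and 1316 in the controls and at 503 and 626 after 6 h (-1.23 ± 0.16, adjusted p = 0.10). *Srebf1* and *Fads2* had 6 h levels well below both controls. The rows of both overlap genes on the opposite strand (*Rai1* and *Fth1*, among others). The core synthesis enzymes did not follow, since *Fasn* was at 39.2 and 65.5 in the controls and at 74.9 and 70.2 after 6 h, *Acaca* was at 31.7 and 35.03 in the controls and at 48.7 and 52.0 after 6 h, and *Elovl6* had the largest difference of the list (0.61 ± 0.14, adjusted p = 0.23). No gene of this list passed the limma test, and 9 lower and 2 higher genes had an unadjusted p below 0.05 (595 and 585 of all 9685 tested genes). Of 24 cholesterol synthesis genes, 11 were lower (45.8%, against 22.5% of all tested genes) and 4 higher (16.7%, against 22.6%). As deposited, 5 were lower and 5 higher, where 1282 of all tested genes were lower and 3265 higher. After scaling, the median of these 24 genes was -0.17 (-0.07 without the sevoflurane and -0.25 without the desflurane liver after 6 h). The differences lay between -0.81 for *Dhcr7* and 0.71 for *Insig2*, the protein that retains SREBP in the endoplasmic reticulum.

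Enzymes of the urea cycle and of amino acid breakdown were higher for 15 of 37 tested genes (40.5%, against 22.6% of all tested genes) and lower for 5 (13.5%, against 22.5%). The median was 0.17, and it was 0.04 without the desflurane control, 0.30 without the sevoflurane control and 0.26 without the desflurane liver after 6 h. *Ass1* was at 1001 and 768 in the controls and at 1433 and 1601 after 6 h (0.79 ± 0.18, adjusted p = 0.22), *Asl*, the next step of the cycle, was at 116 and 96.2 in the controls and at 268 and 217 after 6 h (1.19 ± 0.16, adjusted p = 0.10), and *Arg1*, the last step, was at 743 and 679 in the controls and at 1637 and 1223 after 6 h (0.99 ± 0.18). *Bhmt*, which returns homocysteine to methionine, was at 1268 and 1132 in the controls and at 3068 and 3785 after 6 h (1.51 ± 0.17, adjusted p = 0.0970). *Mat1a*, which makes S-adenosylmethionine from it, was at 722 and 735 in the controls and at 1335 and 1415 after 6 h (0.92 ± 0.13). These enzymes were higher with both agents, and *Otc*, the step of the cycle inside mitochondria after *Cps1*, overlapped at 515 and 461 in the controls and 422 and 471 after 6 h. *Cth*, which splits cystathionine to cysteine, was lower, at 206 and 295 after 6 h against 414 and 432 (-0.78 ± 0.19, adjusted p = 0.26).

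Glucocorticoid responsive genes were higher for 10 of 21 (47.6%, against 22.6% of all tested genes) and lower for 1, *Nr3c1*, which encodes the receptor itself (56.2 and 55.2 in the controls, 45.2 and 47.8 after 6 h). The median was 0.45, and it was 0.18 without the sevoflurane liver after 6 h. *Fkbp5*, a feedback chaperone of the receptor, was at 8.51 and 8.12 in the controls and at 12.8 and 13.7 after 6 h (0.61 ± 0.12, adjusted p = 0.20), and *Dusp1* had the lowest difference of this list without separation of the states (53.9 and 131 in the controls, 58.1 and 21.1 after 6 h). *Per1*, a clock gene that glucocorticoids and cAMP induce, was at 9.12 and 4.60 in the controls and at 16.7 and 23.0 after 6 h (1.45 ± 0.31, adjusted p = 0.20). Of the 19 clock genes, 3 were higher (15.8%) and 4 lower (21.1%, against 22.5% of all tested genes), and the median was 0.01. *Nr1d1* and *Dbp*, the most abundant of these, overlapped (169 and 120 in the controls and 140 and 184 after 6 h for *Nr1d1*).

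**Figure D4:**
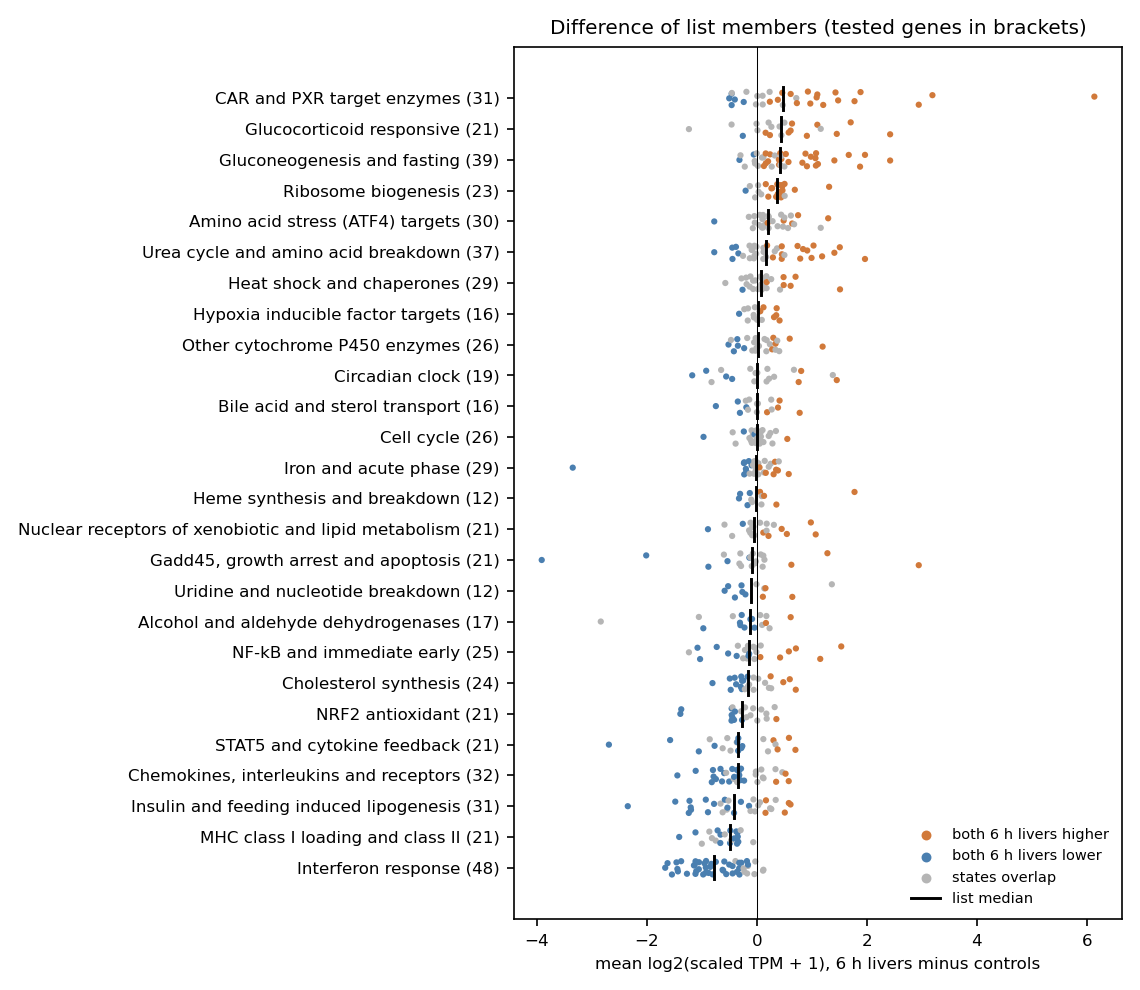
Differences of mean log2(scaled TPM + 1), 6 h livers minus controls, for the tested members of 26 gene lists, with 1 point per gene, color by separation of the states, and a bar at the median of each list. The medians run from -0.78 for interferon response genes to 0.47 for CAR and PXR target enzymes.

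Genes of ribosome biogenesis were higher for 16 of 23 tested genes (69.6%, against 22.6% of all tested genes) and lower for 1 (*Fbl*), with a median of 0.37 that was 0.16 without the sevoflurane liver after 6 h. The nucleolar genes *Npm1* and *Ncl*, the most abundant, differed by 0.02 and 0.08, and *Ifrd1* had the largest difference (26.1 and 15.1 in the controls, 61.6 and 41.9 after 6 h, 1.31 ± 0.30, adjusted p = 0.23). No gene passed the limma test, and 9 higher and 0 lower genes had an unadjusted p below 0.05 (585 and 595 of all 9685 tested genes). Immediate early and NF-κB genes went both ways, with 6 of 25 higher (24%) and 7 lower (28%, against 22.5% of all tested genes). The median was -0.15, and it was between -0.29 and -0.03 when 1 library was left out. *Zfp36*, which encodes a protein that destabilizes cytokine mRNAs, was at 44.6 and 42.3 in the controls and at 96.8 and 98.6 after 6 h (1.15 ± 0.11, adjusted p = 0.0718). *Egr1* was at 25.1 and 11.9 in the controls and at 31.2 and 86.6 after 6 h (1.53 ± 0.54, adjusted p = 0.38), so that most of its difference came from the desflurane liver.

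In some groups most genes overlapped between the states, as did 5322 of all 9685 tested genes. Of 30 tested targets of ATF4, the transcription factor of amino acid stress, 24 overlapped, 5 were higher and 1, *Cth*, was lower. The median difference from the own control was 0.69 with sevoflurane and -0.33 with desflurane, and each agent has 1 liver per state. The controls differed as well (median 0.21, desflurane minus sevoflurane). The median over both agents, 0.21, was -0.13 without the sevoflurane liver after 6 h and 0.57 without the desflurane liver. *Trib3*, an ATF4 target that dampens insulin signaling, was higher in both 6 h livers (3.88 and 4.44 in the controls, 14.8 and 9.12 after 6 h, 1.30 ± 0.24, adjusted p = 0.17). Heat shock and chaperone genes were of the same kind, with 22 of 29 overlapping, 6 higher and 1 lower (*Calr*), and a median of 0.08 that was -0.17 without the sevoflurane and 0.45 without the desflurane liver after 6 h. *Hspa8*, for example, was at 242 and 263 in the controls and at 479 and 147 after 6 h, whereas *Edem1*, which helps to clear misfolded proteins from the endoplasmic reticulum, was at 88.8 and 105 in the controls and at 269 and 286 after 6 h (1.51 ± 0.13, adjusted p = 0.0640). The cell cycle genes overlapped for 22 of 26, with 1 higher (*Ccnb2*) and 3 lower, and the median of -0.00 was -0.25 without the sevoflurane and 0.31 without the desflurane liver after 6 h. *Ccnd2* was the lowest of them (13.3 and 12.4 in the controls, 8.04 and 4.52 after 6 h).

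The remaining groups had medians between -0.27 and 0.03. Of all tested genes, 22.5% were lower and 22.6% higher in both 6 h livers. Of 21 NRF2 antioxidant genes, 9 were lower (42.9%) and 1 (*Hmox1*) higher (4.76%). The median of -0.27 was 0.01 without the desflurane and -0.43 without the sevoflurane liver after 6 h. *Osgin1* was at 160 and 227 in the controls and at 76.0 and 68.1 after 6 h (-1.39 ± 0.19, adjusted p = 0.10), and *Gclm*, the modifier subunit of glutathione synthesis, was at 258 and 186 in the controls and at 100.8 and 69.6 after 6 h (-1.38 ± 0.24, adjusted p = 0.16). Both genes were lower with each agent, whereas *Nqo1*, the usual readout of NRF2, was at 7.22 and 9.16 in the controls and at 10.3 and 8.42 after 6 h. Of 16 hypoxia targets tested, 6 were higher (37.5%) and 1 (*Slc2a1*) lower (6.25%), with differences between -0.32 and 0.41 and a median of 0.03. Of 16 genes of bile acid and sterol transport, 4 were higher and 4 lower (25% each), with a median of 0.00. *Cyp7a1*, the rate-limiting enzyme of bile acid synthesis, was at 85.4 and 72.5 in the controls and at 193 and 95.5 after 6 h (0.78 ± 0.33). *Baat*, which conjugates bile acids, was at 713 and 636 in the controls and at 418 and 385 after 6 h (-0.75 ± 0.13). Of 12 genes of uridine and nucleotide breakdown, 6 were lower (50%) and 3 higher (25%), with a median of -0.11 (between -0.23 and 0.04 when 1 library was left out). Of 17 alcohol and aldehyde dehydrogenases, 8 were lower (47.1%) and 2 higher (11.8%), with a median of -0.12 (between -0.30 and -0.03 when 1 library was left out). *Aldh1a1* was the highest of these (156 and 149 in the controls, 235 and 234 after 6 h, 0.61 ± 0.11). With the values as deposited, the medians of the nuclear receptor, heme, acute phase and cell cycle lists changed sign, to 0.04, 0.06, 0.07 and 0.06.

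In the rn6 coordinates of the files, some of the 151 genes of at least 1 log2 lay within 100 kb of another gene that differed in the same direction. On the lower side these were *Irgm* and *Ifi47* on chromosome 10, *Gbp5* and *Gbp2* on chromosome 2, *Psmb9*, *Tap1* and *Psmb8* on chromosome 20, *Fcgr3a* and *Cfap126* on chromosome 13, *Tubb2b* and *Tubb2a* on chromosome 17, *RGD1309362* and *MGC108823* on chromosome 18, and the overlapping pair *RT1-N1* and *RT1-N2*. On the higher side they were *Por* and *Rhbdd2* on chromosome 12 and *Slc25a22* and *Pnpla2*, a triglyceride lipase gene, on chromosome 1. *Rhbdd2* was at 12.9 and 6.90 in the controls and at 35.6 and 25.8 after 6 h, and the distance between it and *Por* was 45341 bp.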

How the data were processed

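Liver RNA of 4 rats was analysed. The authors trimmed reads with sickle, aligned them to rn6 with HISAT2 and quantified refGene annotation with StringTie. The deposited TPM column, a coverage signal normalized by length and depth, was used. Its total exceeds that of a plain TPM column because assembled transcripts add to the annotated rows. The aligned depth was computed from the ratio of the deposited coverage to the deposited FPKM values, which are normalized per kilobase and library size, and FPKM was used for nothing else. How reads of paralogs or overlapping rows were assigned is not given in the sources used here. Besides the overlaps given above, the row of *Mbl2* overlaps another gene on the same strand. Those of *Nr1d1*, *Ccnb2* and *Elovl6*, among others, overlap a gene on the opposite strand.

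Assembled rows and rows of 200 bp or shorter were removed. TPM values were summed per gene and scaled by median of ratios. Genes with a TPM value higher than 2 in at least 2 libraries were tested with limma 3.58.1 (trend, R 4.3.3) on log2(TPM + 1), 2 livers against 2, with Benjamini-Hochberg adjustment. limma was also tested on simulated data. The study's qPCR genes, the 15 largest and 15 smallest separated differences, the 5 widest gaps per direction, and in each of 36 gene lists the 2 most abundant genes and both extremes were named by rule. Other list members appear in the text by a choice made after seeing their values. The lists and the comparison were chosen with earlier results of these data known, so that their counts are descriptions. Some lists share genes, such as *Cth* in the ATF4 and amino acid breakdown lists, so that their counts are not independent. Alternatives changed scaling, pseudocount, filter, rows, trend and libraries. Single values of 3 list genes are not reported here, and the counts and medians of their lists include them.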

Additional observations from a re-analysis of the deposited data

Results flagged for a closer look

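Among the genes named by rule, 4 differed in opposite directions with the agents, each by at least 0.5 on the log2 scale against the own control. These differences between agents were not tested, since each agent has 1 liver per state. *Adh6* was at 165.6 in the sevoflurane control and 1.16 after 6 h of sevoflurane (-6.27), and at 8.61 and 13.5 with desflurane (0.59). *Upp2*, a uridine phosphorylase, was at 36.6 and 11.6 with sevoflurane (-1.58) and at 4.43 and 106 with desflurane (4.31). *Ephx1*, a CAR target, was at 872 and 1245 with sevoflurane (0.51) and at 1453 and 781 with desflurane (-0.89). *Gadd45a* (0.70 with sevoflurane and -0.85 with desflurane) and *Hspa8* (0.98 and -0.83), which were named after their values were seen, did so too. *Cpb1*, the pancreatic gene, was at 6.04 and 0.323 with sevoflurane (-2.41) and at 0.808 and 2.44 with desflurane (0.93).

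Rows of 200 bp or shorter, which no comparison above used, held 57 genes past the filter. Of these, 12 were higher and 4 lower in both 6 h livers, with a median difference of 0.13. *Mir192* was at 0.642 and 0.705 in the controls and at 3.02 and 3.94 after 6 h.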

How the results depend on the processing

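The number of genes that passed the limma test depended on the processing. It was 5 higher and 1 lower as reported. In the higher direction it was 2 with a pseudocount of 0.5 or 0.1, 2 with rows of 200 bp or shorter kept, 2 with the highest row per gene, 1 without the trend and 0 without a filter on low values. In the lower direction it was 0 under each of these settings except the highest row per gene, and 0 with the TPM values as deposited. At an adjusted p below 0.1 it was 16 and 10. Leaving out 1 library gave 3 to 21 higher and 0 to 23 lower genes. These were 10 and 1 without the sevoflurane control, 3 and 0 without the desflurane control, 6 and 5 without the sevoflurane liver after 6 h, and 21 and 23 without the desflurane liver after 6 h, where the lone remaining liver is assumed to vary like the others. Separated genes numbered 3277 to 3928 in the higher and 3266 to 3836 in the lower direction when 1 library was left out, since 3 values separate more easily than 4. They numbered 1282 in the lower direction as deposited, and 75 and 76 at 1 log2 or more. Except for the separated counts with fewer libraries, the cause was not tested. *Cyp2b1* stayed past the threshold in 13 of 14 settings, *Mfsd2a* in 10 of 14, *Cyp2b2* in 6 of 14, *Gadd45b* in 5 of 13, *Ptp4a1* in 4 of 14 and *Tsc22d1* in 3 of 14. The 30 genes of the largest and smallest differences were separated in all settings except a TPM value above 2 in all 4 libraries, where 7 were not tested. Of 1959 comparisons of 141 named genes with alternatives, 32 lost and 27 gained a call, and 0 reversed. In 51 of these comparisons the difference changed sign without a call.

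Both states share the agents as replicate numbers. With the agent as replicate block, 1 gene passed in the higher and 0 in the lower direction. It was *Cyp2b1* (limma adjusted p = 0.00848), and the other called genes each had an adjusted p of 0.118. The libraries of an agent come from different rats and are not pairs by design. The deviations of the sevoflurane libraries from their state means correlated at -0.0766 over the 9685 genes. This value mixes rat and agent, so no conclusion on an agent effect is drawn from it. With 1 liver per agent and state, the depth of 4.47 to 5.40 Gb limits genes of low TPM, and the number of rats limits all others.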
